A study of Mus musculus with 2 samples.

Results

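The guanylate-binding proteins are interferon-inducible GTPases of the dynamin superfamily, and 9 of their genes, Gbp2, Gbp2b, Gbp3, Gbp4, Gbp5, Gbp6, Gbp7, Gbp8 and Gbp9, are described here out of 55450 annotated genes measured. They were chosen by name, and each matched 1 gene identifier. Ribosomal-RNA-depleted total RNA was sequenced from the nucleoplasm, called the nuclear fraction elsewhere in the labels, of macrophages grown from the bone marrow of C57BL/6J mice. Both libraries received the same treatment: lipid A, the membrane anchor of bacterial lipopolysaccharide, at 100 ng/ml for 12 h, then 12 h after washout, then lipid A again at 100 ng/ml for 25 min. No age or sex was collected. The 2 libraries were biological replicates 1 and 2 of a single group and shared a donor entry, so their spread may be technical. With no other group, no value below is a response to lipid A and no test between conditions was possible. The starting RNA was 500 ng for replicate 1 and 1 µg for replicate 2, which cannot be told apart from the replicate itself.

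Guanylate-binding proteins bind and hydrolyse guanine nucleotides, assemble into polymers, and gather on the membranes of vacuoles that hold microbes and on bacteria in the cytosol. There they help to break the vacuole and to expose lipopolysaccharide and DNA to inflammasomes, the complexes that activate inflammatory caspases. Their genes are transcribed in response to interferons through JAK kinases and the interferon regulatory factors, and in macrophages lipopolysaccharide acts on them largely through the interferon-beta that it induces.

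The gene tables held 20196408 expected counts in replicate 1 and 19588980 in replicate 2. All 8 macrophage markers were at 1 TPM or more in both libraries, led by Lyz2 with 1502 ± 194 TPM, Adgre1 with 683 ± 11.3 TPM and Csf1r with 436 ± 123 TPM (SD, n = 2). TPM is a level per transcript length, scaled to a fixed total over all entries of a library. Of 23 markers of T, B, NK, neutrophil, endothelial, fibroblast and dendritic cells, 1 was at 1 TPM or more in both, Pecam1 at 1.75 ± 0.382 TPM, and 8 had no count in either library. The 23 together summed to 4.45 TPM in replicate 1 and 4.09 in replicate 2. Because these were bulk samples, fewer cells expressing a gene and less RNA per cell cannot be told apart.

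Most members were abundant, and Gbp2b was by far the lowest. At 1 TPM or more in both libraries were 8 of 9 members, against 45.0% of protein-coding genes, and 7 of 9 were at 50 TPM or more in both, against 4.24%. The family median was 90.3 TPM in replicate 1 and 85.6 TPM in replicate 2, or 88.0 ± 3.27 TPM (SD, n = 2). The median protein-coding gene that reached 10 expected counts in both libraries had 9.34 and 7.82 TPM. All 9 members passed that filter of 10 counts. Together the members summed to 729 and 870 TPM, which was 0.247% and 0.319% of the TPM of protein-coding genes.

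**Figure D1:**
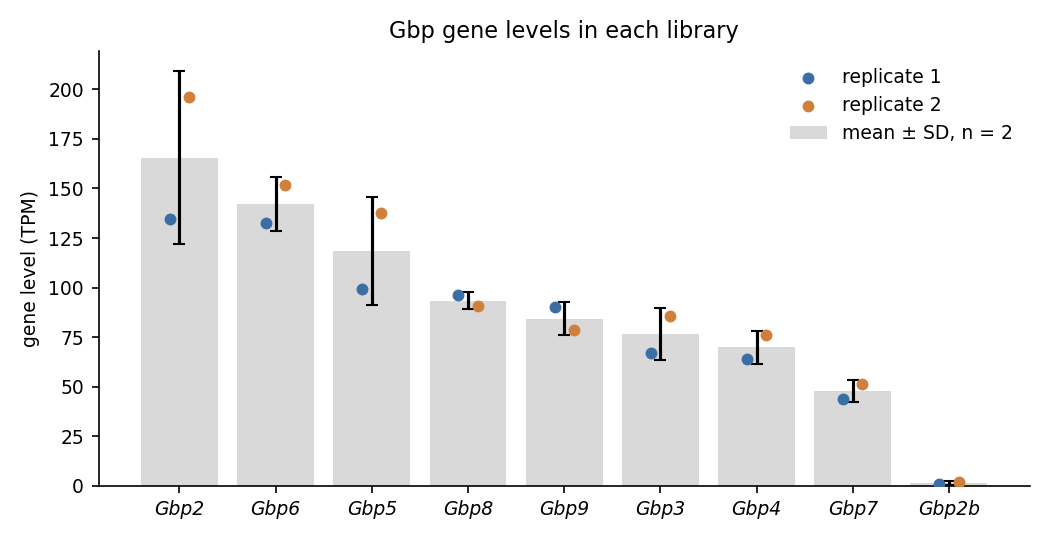
Gene level in TPM for each of the 9 members, ordered by mean. Points are the 2 libraries, bars the mean and whiskers the SD (n = 2). Gbp2 was highest in both libraries, and Gbp2b, at 0.75 and 2.06 TPM, lowest.

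Gbp2, which coats parasite vacuoles and promotes the caspase-11 and AIM2 inflammasomes, had 134.7 TPM in replicate 1 against 196.3 TPM in replicate 2, from 6144 and 9927 expected counts. It ranked 321 and 174 among 21938 protein-coding genes. Gbp5, known for its link to inflammasome activation, had 99.3 and 137.8 TPM from 6174 and 9532 counts. Both genes were higher in replicate 2.

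Gbp2b, long called Gbp1 in the mouse, had 0.75 TPM in replicate 1 against 2.06 TPM in replicate 2, from 39 and 118 expected counts. It was low in both libraries, with ranks of 10640 and 9007 among protein-coding genes. Its mean was 1.41 ± 0.926 TPM (SD, n = 2), and Gbp7, the next member up, had a mean 33.9 times as high, with no overlap of the ranges. The ratio was 58.4 in replicate 1 alone and 25 in replicate 2 alone. Gbp2b ends 1422 bases before Gbp2 starts on the same strand of chromosome 3, and their coding sequences of 1767 bases each were 82.5% identical. Their first 75 coding bases, from the GENCODE M21 transcripts, are shown because the most and the least abundant member are each other's closest relative, and capitals mark the 22 bases that differ within the pair.
Gbp2: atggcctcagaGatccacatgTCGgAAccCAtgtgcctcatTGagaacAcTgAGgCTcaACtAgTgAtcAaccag
Gbp2b: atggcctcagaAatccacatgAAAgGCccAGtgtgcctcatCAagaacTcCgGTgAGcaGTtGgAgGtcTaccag
The transcripts of the pair shared few stretches: 4.61% of the 31-base words of Gbp2 and 4.15% of those of Gbp2b occurred in the other. Expected counts of neither had an uncertainty of assignment at gene level, the posterior SD being 0 in both libraries.

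Gbp7, which has been tied to NADPH oxidase assembly and autophagy factors at vacuoles, had 43.8 and 51.6 TPM from 4405 and 5069 counts. Gbp3, like Gbp7 a part of the chromosome 3 group, had 67.1 and 85.6 TPM from 3189 and 4531 counts. Both were higher in replicate 2, and their ranges did not overlap. A processed pseudogene on the same strand, Gm43802, lies inside the last exon of Gbp7 over 637 bases. It was listed at 5.31 and 18.8 TPM, and the posterior SD of its count, 17.2 and 19.5 counts, equalled that of Gbp7. Gm43802 is outside the rule for named genes and was singled out after its values were seen.

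All 4 chromosome 5 members were above 50 TPM in both libraries. Gbp6, one of the members seen at Toxoplasma vacuoles, had 132.6 and 152.0 TPM from 9599 and 11149 counts. Gbp8, one of the less studied members, had 96.3 and 90.5 TPM from 3683 and 4069 counts. Gbp9, also reported at Toxoplasma vacuoles, had 90.3 and 78.4 TPM from 7881 and 7262 counts. Gbp4, described as a repressor of IRF7-driven interferon production, had 64.0 and 75.9 TPM from 3998 and 5219 counts. Gbp8 and Gbp9 were lower in replicate 2 on the TPM scale, while the other 7 members were higher there.

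By mean TPM the order was Gbp2 (166 ± 43.6), Gbp6 (142 ± 13.7), Gbp5 (119 ± 27.2), Gbp8 (93.4 ± 4.09), Gbp9 (84.3 ± 8.42), Gbp3 (76.4 ± 13.1), Gbp4 (69.9 ± 8.39), Gbp7 (47.7 ± 5.46) and Gbp2b (SD, n = 2 each). In 4 of the 8 neighbouring pairs the ranges of the 2 libraries overlapped: Gbp2 and Gbp6, Gbp6 and Gbp5, Gbp9 and Gbp3, and Gbp3 and Gbp4. By these ranges the pairs did not differ beyond their spread. Within replicates 1 and 2 the ratio was 1.02 and 1.29 for Gbp2 over Gbp6, and 1.33 and 1.10 for Gbp6 over Gbp5. It was 1.34 and 0.915 for Gbp9 over Gbp3, and 1.05 and 1.13 for Gbp3 over Gbp4. Gbp8 and Gbp9 were separated only narrowly, the lower Gbp8 value being 90.5 TPM and the higher Gbp9 value 90.3 TPM. In the other deposited quantification, a table in the layout of kallisto, Gbp8 was below Gbp9 in both libraries. Gbp9 and Gbp3 changed places between the libraries, and the other 7 members kept their place.

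The family lies in a pair of clusters. On chromosome 3 of GRCm38, Gbp5, Gbp7, Gbp3, Gbp2b and Gbp2 follow one another on the plus strand over 144031 bases (chr3:142493978-142638008). On chromosome 5, Gbp8, Gbp9, Gbp4 and Gbp6 lie on the minus strand over 279549 bases (chr5:105014150-105293698). The median level of the chromosome 3 members was 67.1 and 85.6 TPM, and that of the chromosome 5 members 93.3 and 84.4 TPM. The difference of their medians of log2(TPM + 1) was -0.47 in replicate 1 and 0.02 in replicate 2, with a mean of -0.22 ± 0.35 (SD, n = 2). The clusters therefore did not differ beyond the spread between libraries.

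Promoter sequences of RefSeq (GRCm38.p6, from 250 bases before to 50 after the start site) were found for 5 of 9 members, Gbp2, Gbp2b, Gbp3, Gbp5 and Gbp7. At its first RefSeq start each of the 5 held an interferon-stimulated response element, ISRE, searched on both strands as GAAANNGAAA, a pair of GAAA half-sites, which 3.44% of 32851 promoters hold. Every match was on the minus strand and therefore reads TTTCNNTTTC below. Its first base lay 165 bases before the RefSeq start site in Gbp5, 53 in Gbp7, 45 and 39 in Gbp3 (a pair of overlapping matches), 137 in Gbp2b and 59 in Gbp2. In GENCODE M21, however, Gbp2-201 starts at 142620602, before the RefSeq start of Gbp2 at 142620663. The Gbp2 match, at 142620604-142620613, therefore lies within the annotated transcript and not upstream of it. A second RefSeq start of Gbp3, at 142560356, had a window with no match to any motif searched. Gbp3-202, which begins at 142560411 and held 77.7% and 83.4% of the TPM of Gbp3, starts closest to it. The windows are shown because the highest and the lowest member carry the same 10 bases, and capitals mark the match.
Gbp5, chr3:142496759-142496788, plus strand: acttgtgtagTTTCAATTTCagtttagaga
Gbp7, chr3:142530273-142530302, plus strand: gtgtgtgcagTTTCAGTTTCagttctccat
Gbp3, chr3:142559989-142560018, plus strand: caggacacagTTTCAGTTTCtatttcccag
Gbp2b, chr3:142594700-142594729, plus strand: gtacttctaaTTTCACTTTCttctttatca
Gbp2, chr3:142620594-142620623, plus strand: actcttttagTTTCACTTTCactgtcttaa
The interferon-gamma-activated site, GAS, searched as TTCNNNGAA, was present in 2 of the 5, Gbp5 and Gbp7, with 2 matches each, and in 8.30% of all promoters. The kappaB site of the NF-kappaB factors, searched by name, matched in Gbp5 alone among the 5 and in 4.51% of all promoters. The AP-1 site, searched as TGANTCA, matched in Gbp2 and Gbp2b and in 7.81% of all promoters. The upstream stretches of Gbp5 and Gbp7, the members with matches to both interferon elements, are shown with ISRE and GAS in capitals. The Gbp7 stretch ends at the RefSeq start site, and the Gbp5 stretch ends at the first exon of the coding Gbp5-201. The Gbp5 stretch lies within the annotated gene, since the processed transcript Gbp5-204 starts further upstream, at 142493978, and it overlaps no exon of that transcript.
Gbp5, chr3:142496684-142496899, plus strand: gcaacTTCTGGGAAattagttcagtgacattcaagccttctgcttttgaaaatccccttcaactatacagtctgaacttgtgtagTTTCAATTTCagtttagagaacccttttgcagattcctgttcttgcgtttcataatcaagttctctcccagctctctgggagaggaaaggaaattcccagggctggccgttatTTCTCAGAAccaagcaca
Gbp7, chr3:142530086-142530335, plus strand: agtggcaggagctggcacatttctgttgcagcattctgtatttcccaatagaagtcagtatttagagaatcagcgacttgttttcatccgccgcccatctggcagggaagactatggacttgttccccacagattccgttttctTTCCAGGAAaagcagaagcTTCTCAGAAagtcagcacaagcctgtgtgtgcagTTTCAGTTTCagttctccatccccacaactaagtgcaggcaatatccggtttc
A match describes these letters only and is not a measured binding site.

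**Figure D2:**
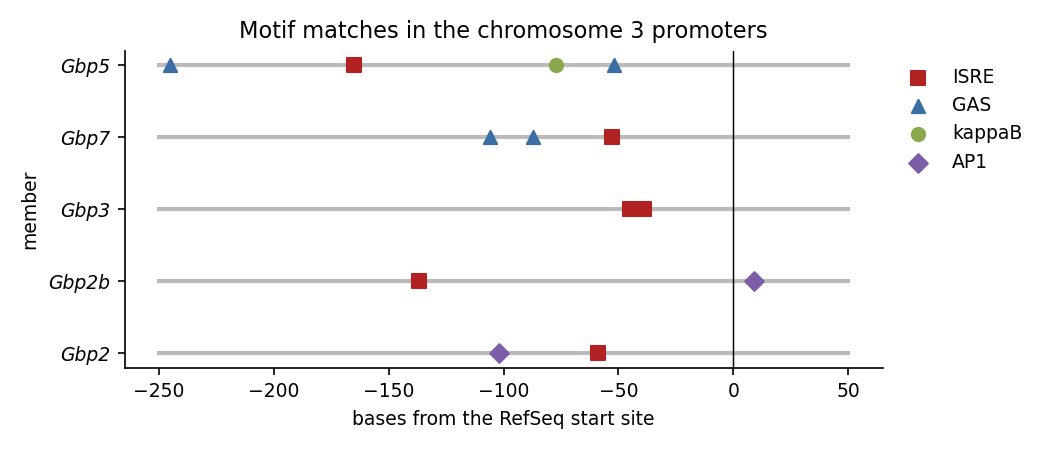
Positions of motif matches from 250 bases before to 50 bases after the RefSeq start site of the 5 chromosome 3 members, by first base. Squares are ISRE, triangles GAS, circles kappaB and diamonds AP-1. All 5 carry an ISRE, and Gbp5 and Gbp7 also carry GAS matches.

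The members differed in how much sequence they share with other genes. The share of 31-base words of a gene's transcripts that also occur in another gene was 74.3% for Gbp6, 31.1% for Gbp8, 18.3% for Gbp9 and 15.0% for Gbp4. On chromosome 3 it was 14.7% for Gbp7, mostly in Gm43802, and between 3.10% and 5.64% for the other 4 members. For Gbp6 the sharing was mainly with Gbp10, at 51.4% of its words, and with Gm43302, at 67.8%. Gm43302 is a gene model on the same strand whose exons overlap those of Gbp6 by 1726 and those of Gbp10 by 1792 bases, and it was singled out after its values were seen. The coding sequences of Gbp6 and Gbp10 were 98.4% identical, and their first 75 coding bases are shown because no read inside them can tell the pair apart.
Gbp6: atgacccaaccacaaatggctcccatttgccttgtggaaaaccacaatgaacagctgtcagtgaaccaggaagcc
Gbp10: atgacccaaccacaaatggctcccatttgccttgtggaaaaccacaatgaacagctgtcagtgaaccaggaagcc

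**Figure D3:**
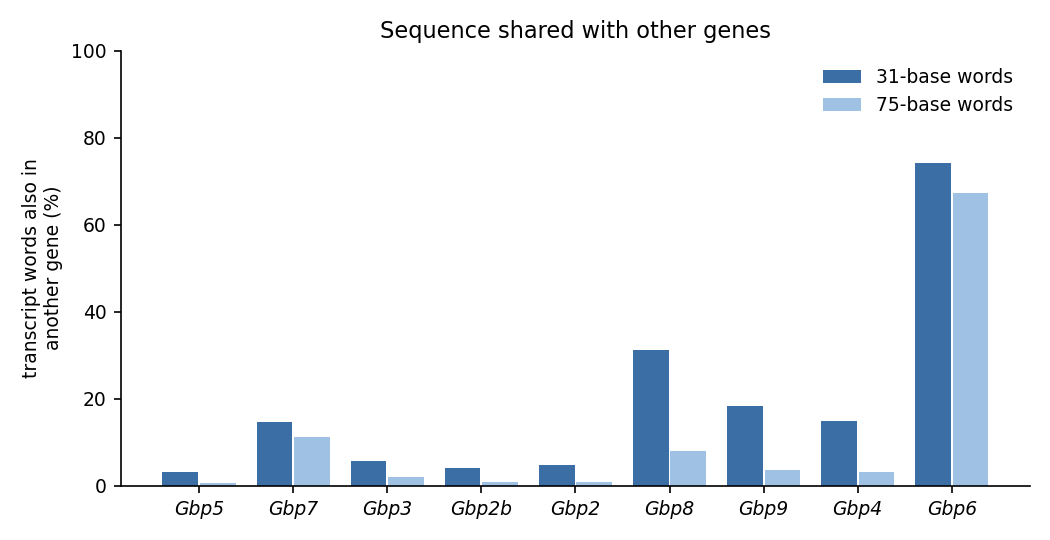
Percent of the distinct 31-base and 75-base words in each member's annotated transcripts that also occur in another gene, on either strand. The 5 members on the left lie on chromosome 3 and the 4 on the right on chromosome 5. Gbp6 stands highest, at 74.3% and 67.3%.

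The tables nevertheless gave most of these reads to Gbp6. Gbp10 was listed at 5.44 and 4.76 TPM from 113 and 238 counts, and Gm43302 at 0.81 and 0.21 TPM from 65.7 and 19.2 counts. The posterior SD of the count, which measures how far reads could be reassigned, was 37.1 and 32.6 counts for Gbp6, or 0.387% and 0.293% of its posterior mean count. For Gbp10 it was 16.7% and 6.43%, and for Gm43302 50.3% and 75.5%, each of the posterior mean count, which differs from the expected count printed above. The uncertainty was therefore small beside the Gbp6 level and large beside the other 2. Gbp11, annotated as a polymorphic pseudogene, had 18.6 and 21.3 TPM. Gbp2-ps, a pseudogene on chromosome 3, was listed at 0 in both libraries. With Gbp10, Gbp11 and Gbp2-ps, 3 further genes bear the family name.

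Gbp8, Gbp9 and Gbp4 also share bases near their starts. The first exon of Gbp4 contains the first 61 bases of transcript Gbp8-201 and the first 60 bases of Gbp9-202. Sequence inside the 60 common bases fits all 3 genes. Gbp4 itself starts further upstream, at 105139586, against 105139540 for Gbp8 and 105139539 for Gbp9. Gbp9-202 was listed at 0 TPM in replicate 1 and at 9.11 TPM in replicate 2. Gbp9-201, which starts outside that exon at 105110276, was listed at 56.2 and 38.6 TPM. The retained-intron transcript Gbp9-203 starts beside it, at 105110277. Gbp8-201 was listed at 24.8 and 38.2 TPM.

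Much of the signal of 5 members lay on transcripts that the annotation does not class as protein coding. Over the family the share of TPM on such transcripts was 43.2% in replicate 1 and 35.7% in replicate 2, or 39.5 ± 5.30% (SD, n = 2). The median over 11362 protein-coding genes with at least 10 counts was 20.1% and 22.5%. Over 50% in both libraries lay on such transcripts in 4 of 9 members, Gbp4, Gbp5, Gbp6 and Gbp8, against 15.7% of those genes. Gbp2b and Gbp7 have only protein-coding models, so their share is 0 by annotation. Gbp2 and Gbp3 have no retained-intron model, so their shares could hold no TPM of that class. The annotation has no entries for unspliced precursor RNA, and the part that such RNA of the nuclear fraction had in these shares was not tested.

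**Figure D4:**
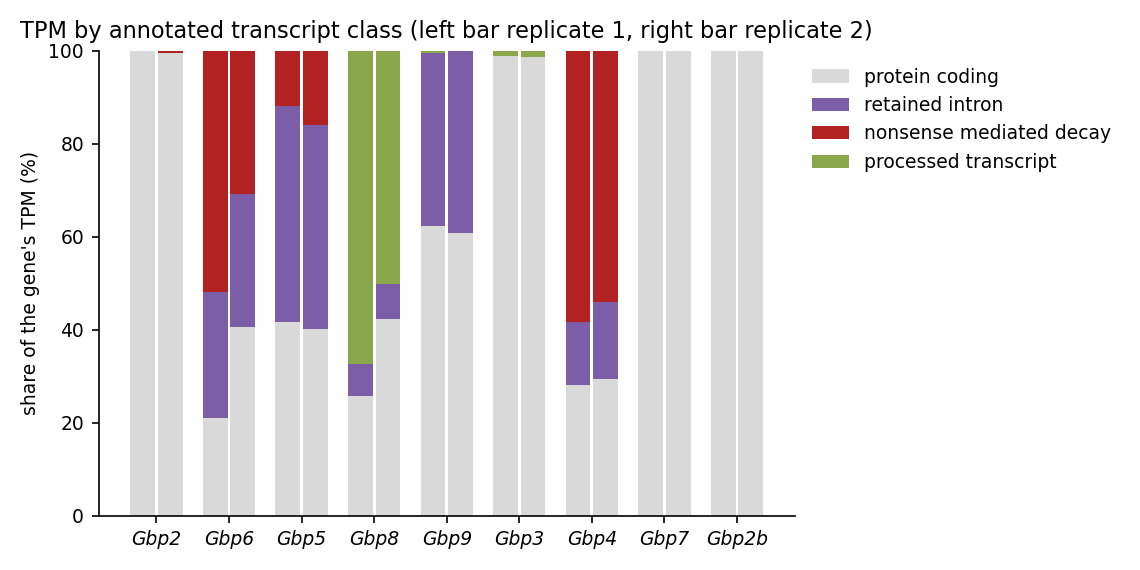
Share of each member's TPM by annotated transcript class, in percent, with replicate 1 in the left and replicate 2 in the right bar of each pair. Grey is protein coding, purple retained intron, red nonsense-mediated decay and green processed transcript. Gbp4, Gbp5, Gbp6 and Gbp8 have less than 50% grey in both libraries.

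The largest entry of Gbp4 was a transcript annotated for nonsense-mediated decay, the pathway that degrades RNAs with an early stop codon. That transcript, Gbp4-202, had 37.4 and 41.0 TPM, from 3185 and 3855 counts, which was 58.4% and 54.0% of the TPM and 79.7% and 73.9% of the expected counts of the gene. In the kallisto-layout table it held 40.4 ± 3.44% of the TPM (SD, n = 2). A short coding transcript, Gbp4-203, had 12.3 and 13.3 TPM, and the retained-intron transcript Gbp4-205 had 8.62 and 12.5 TPM. The full-length coding transcript, Gbp4-201, had 1.71 and 3.49 TPM, from 146 and 330 counts. The posterior SD of the Gbp4-201 count was 70.2 and 106 counts, so its level was poorly determined, but the gap between the 2 transcripts was many times larger. Both have 11 exons and the same ends, and they differ only by 29 bases (chr5:105136810-105136838, minus strand), the end of an exon that Gbp4-201 includes and Gbp4-202 leaves out. The junction is printed with 20 bases on each side, because only reads that touch it can separate the pair. Capitals mark the 29 bases.
Gbp4-201: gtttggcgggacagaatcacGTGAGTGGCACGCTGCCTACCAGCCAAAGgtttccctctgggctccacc
Gbp4-202: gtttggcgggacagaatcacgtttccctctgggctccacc
The retained 29 bases begin with GTGAGT, the letters of a usual splice donor, in Gbp4-201. In the annotation the coding part is 1893 bases for Gbp4-201 and 309 bases for Gbp4-202.

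Gbp6 was divided over 3 transcripts. The coding Gbp6-201 had 27.8 TPM in replicate 1 against 61.7 TPM in replicate 2. Gbp6-203, annotated for nonsense-mediated decay, had 68.6 and 46.9 TPM, so the order of the pair turned between libraries. Gbp6-203 lacks a 128-base exon of Gbp6-201 (chr5:105288927-105289054) and extends 1709 bases further at its end. Those 1709 bases lie in no other transcript of Gbp6, whereas Gbp6-201 has 0 bases of its own. Among the Gbp6 transcripts, reads in the long end fit Gbp6-203 alone, whether or not the exon was skipped. The levels of the pair therefore do not by themselves tell how often the exon was left out. The retained-intron transcript Gbp6-202 had 36.2 and 43.4 TPM.

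Gbp5 and Gbp9 had retained-intron shares of TPM that repeated closely, as did Gbp6 (27.3% and 28.5%) and Gbp8 (6.74% and 7.73%). With the kallisto-layout TPM the share was 40.7% and 35.7% in Gbp5, and 29.2% and 29.3% in Gbp9. In Gbp5 the retained-intron transcript Gbp5-205 took 46.4% and 43.8% of the TPM of the gene, with 46.1 and 60.4 TPM. The coding Gbp5-201 had 41.4 and 55.5 TPM. In Gbp9 the retained-intron transcript Gbp9-203 had 33.8 and 30.6 TPM, a share of 37.4% and 39.1%. It differs from Gbp9-201 chiefly by a retained stretch of 662 bases (chr5:105082911-105083572). In Gbp8 the largest entry was Gbp8-204, a processed transcript with 65.0 and 45.3 TPM that starts inside the gene. It lacks the first 5 exon stretches of Gbp8-201, and carries 144 bases before the shared exons that Gbp8-201 does not have (chr5:105021921-105022064). Those bases are not particular to Gbp8-204, which has 0 bases found in no other transcript of the gene.

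Gbp2 and Gbp3 were counted on coding transcripts. Neither has a retained-intron model, so their small share on other classes is limited by the annotation and does not show fuller splicing. Gbp2-201 held all of the TPM of Gbp2 in replicate 1 and 99.6% in replicate 2. Gbp3-202 had 52.1 and 71.4 TPM and Gbp3-203 had 13.0 and 11.7 TPM. Gbp3-202 and Gbp3-203 differ almost only in their first exon and encode 1860 bases each. The posterior SD was 211 and 126 counts for Gbp3-202, on 2550 and 3879 counts. For Gbp3-203, which has 0 bases of its own, it was 204 and 127, on 620 and 619 counts. The level of Gbp3-203 was therefore poorly determined, while Gbp3-202 was the larger in both libraries. Gbp7-201, which has 3099 more bases at its end than Gbp7-202, had 39.1 and 36.5 TPM, and Gbp7-202 had 4.71 and 15.1 TPM. The extra end of Gbp7-201 is where Gm43802 lies.

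Most members were higher in replicate 2 than in replicate 1, also against the median gene. The log2 ratio of replicate 2 over replicate 1 on TPM + 1 was -0.21 for the median of 14587 genes with at least 10 counts in each library, and members are given relative to it. Relative to it the members ranged from 0.01 for Gbp9 to 1.01 for Gbp2b. Past 1.5-fold above it were 3 of 9 members, against 8.52% of genes, namely Gbp2b, Gbp2 at 0.75 and Gbp5 at 0.68. Gbp3 was just inside that limit at 0.56. Gbp4 stood at 0.45, Gbp7 at 0.44, Gbp6 at 0.40 and Gbp8 at 0.12. None was 1.5-fold below the median, against 6.77% of genes. The family median was 0.45. It was 0.052 with the kallisto-layout TPM, and 0.65 with those values rescaled to protein-coding genes. Rescaling multiplies each library by a constant, so these values differ only through the 1 added before the logarithm. With no filter on counts the family median was 0.24, which equals the ratio of the members with no median subtracted. With 1 library on each side there is no replicate check of these ratios.

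**Figure D5:**
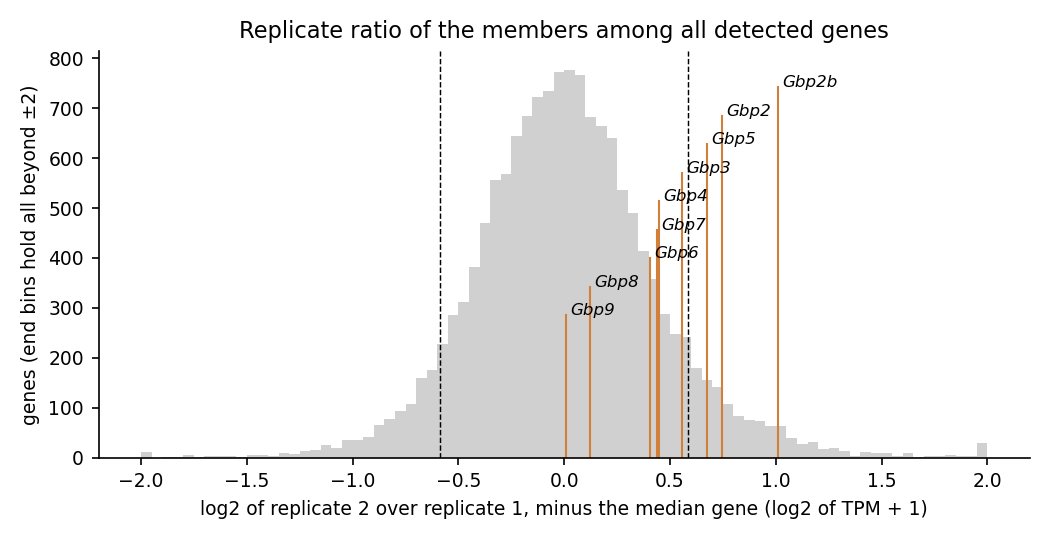
Histogram of log2 of replicate 2 over replicate 1 (TPM + 1), minus the median gene, for 14587 genes, with the 9 members as orange lines whose heights carry no meaning. Dashed lines mark 1.5-fold. The members lie between 0.01 (Gbp9) and 1.01 (Gbp2b).

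Among 15 genes listed as driving or receiving the interferon signals for this family, 14 were at 1 TPM or more in both libraries. For this list and those below, the share of all protein-coding genes at that level was 45.0%. The highest were Stat2, a part of the ISRE-binding complex, at 227 and 352 TPM, Irf1, an ISRE-binding factor, at 206 and 344 TPM, and Ifnar1, a subunit of the type I interferon receptor, at 88.6 and 75.1 TPM. Stat2 and Irf1 were higher in replicate 2, by 0.84 and 0.94 relative to the median gene on the log2 scale, while Ifnar1 stood at -0.03. The remaining gene, Ifng, had no count in either library. Ifnb1, which encodes interferon-beta, was listed at 1.14 and 5.54 TPM from 12 and 68 counts. It and Ifng fall outside the rule for named genes and were chosen with their values known. Whether these levels had a part in the replicate ratio of the family was not tested.

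Of 14 genes of vacuole targeting, the immunity-related GTPases and the autophagy conjugation system that places them, all 14 were at 1 TPM or more. The highest were the vacuole-coating GTPase Iigp1 at 202 and 292 TPM, the regulatory GTPase Irgm1 at 131 and 136 TPM, and Tgtp2, another vacuole-coating GTPase, at 102 and 141 TPM. Tgtp2 and Tgtp1 are near-identical copies, so the split between them is uncertain. Of 10 inflammasome genes all 10 reached 1 TPM. Gsdmd, the pore-forming protein of pyroptosis, had 85.9 and 140 TPM, the cytokine gene Il1b 141 and 57.5 TPM, and the DNA sensor Aim2 95.2 and 96.2 TPM. Il1b thus lay the other way round from the family, at -1.07 relative to the median gene.

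The 6 genes for prenylation, the lipid attachment that anchors some guanylate-binding proteins in membranes, were all at 1 TPM or more. Pggt1b, the beta subunit of GGTase I, had 27.06 and 21.02 TPM, Fnta, the alpha subunit shared with farnesyltransferase, 10.4 and 8.05 TPM, and the CAAX protease Zmpste24 10.4 and 7.29 TPM. Their median was 7.89 ± 1.34 TPM (SD, n = 2), against 88.0 for the family and 9.34 and 7.82 TPM for the median protein-coding gene given above. Of 8 other GTPase genes, most of them large GTPases, all 8 reached 1 TPM. The antiviral Mx1 stood highest with 504 and 969 TPM, followed by Gvin1, an interferon-inducible very large GTPase, with 152 and 133 TPM, and Mx2 with 75.5 and 132 TPM.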

How the data were processed

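Each library came with 3 tables. The deposited expected counts and TPM per gene and per transcript refer to mm10 with GENCODE M21, per the deposited file notes, and carry a posterior mean, a posterior SD of the count and the percent of a gene's level on each transcript (IsoPct), per the file headers. A further deposited table gives estimated counts and TPM for each transcript. The layouts are those of RSEM and of kallisto. Neither program nor strand setting is given in the sources used here, so reads of antisense genes cannot be told apart. TPM is scaled over all entries, of which protein-coding genes held 29.5% and 27.3% in the RSEM-layout gene tables.

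Members and gene lists were chosen with earlier results of these data known. All 9 members are named, with any other gene named Gbp and a number, and the 3 genes of highest mean TPM in each other list. An item of one list is not reported here. Levels are means and SDs of 2 libraries. Ratios used log2(TPM + 1) and genes with at least 10 expected counts in both libraries. No p-value was computed, since there was 1 group. Shared sequence was the share of distinct 31-base and 75-base words of the M21 transcripts found in any other gene, among 141767 transcripts. Coding identity came from global alignment. Promoters came from RefSeq (GRCm38.p6). Beside ISRE, GAS, kappaB and AP-1, TATAAA was searched on both strands; it matched in Gbp3 alone among the 5 and in 13.6% of all promoters. A count of 3, the limit that a count of 0 allows, was 1.49e-05% and 1.53e-05% of the libraries. TMM factors came from edgeR 4.0.16 and size factors from DESeq2 1.42.0 in R 4.3.3, after rounding the expected counts; the rest used Python 3.11.15, numpy 2.4.6, pandas 2.3.3 and biopython 1.88. Ratios of TMM and DESeq2 values and a simple 31-base word count were tried on simulated data. The ratios of TPM + 1 and the word search on both strands were not. Alternatives tried were posterior mean TPM, kallisto-layout TPM, rescaling to protein-coding genes, a pseudocount of 0.1, other count filters, TMM and DESeq2 scaling, and leaving out each replicate.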

Additional observations from a re-analysis of the deposited data

How the results depend on the processing

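The family median of 88.0 TPM was 84.4 with the posterior mean TPM, 35.5 with the kallisto-layout TPM, 310 with TPM rescaled to protein-coding genes and 283 with the kallisto-layout TPM rescaled in that way; the scale itself differs, since protein-coding genes held 22.8% and 5.27% of the kallisto-layout TPM. The family replicate ratio of 0.45 relative to the median gene was 0.052 with the kallisto-layout TPM and 0.65 with those values rescaled to protein-coding genes. That gap comes only through the 1 added before the logarithm, so the 0.052 does not show how the other way of counting changes the ratio. Outside the 0.052, the family ratio lay between 0.24 and 0.65 in the other 8 alternatives. It was lowest with no filter on counts, where it equalled the ratio with no median subtracted. The share on transcripts not annotated as protein coding was 45.2% by expected counts against 39.5% by TPM, and between 35.7% and 43.2% in single libraries. The difference between chromosome 3 and chromosome 5 members moved by less than its SD of 0.35 in every alternative, and lay between -0.47 and 0.02. From 8 to 9 members were at 1 TPM or more. A mean of 2 libraries always lies within 1 SD of each, so leaving out a library could not move a level past it. Gbp2 was highest and Gbp2b lowest in all 5 sets of values; by the kallisto layout Gbp8 stood below Gbp9 and Gbp4 in both libraries, and in replicate 2 Gbp5 stood above Gbp6, and Gbp3 above Gbp4, Gbp9 and Gbp8. Depth limits Gbp2b most, with 39 and 118 counts. No paired analysis between conditions was possible because there was a single group.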

Other observations

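The 2 ways of counting assigned reads to the members at different rates. The ratio of kallisto-layout to RSEM-layout counts had a median of 1.74 in replicate 1 and 1.33 in replicate 2 over 14587 genes. Gbp4, with 1.86 and 1.45, and Gbp5, with 1.81 and 1.33, had the highest ratios of the 9 members in both libraries. The other 7 members lay between 1.48 and 1.58 in replicate 1 and between 1.19 and 1.26 in replicate 2. For the retained-intron transcript of Gbp4, Gbp4-205, the kallisto layout gave 2010 and 2118 counts and the RSEM layout 504 and 813. Gbp4-201, the full-length coding transcript, had 0 counts in replicate 1 and effectively none in replicate 2 in the kallisto layout. These values were chosen after they were seen, and the cause was not tested.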
